A study of Mus musculus with 12 samples.

Results

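Intracisternal A-particle (IAP) elements were taken as every repeat whose subfamily name starts with IAP. The rule gave 6436 of the 781935 repeat loci listed and 25 of the 1528 repeat subfamilies listed. Of the 25 subfamilies, 10 are internal parts and 15 are long terminal repeats (LTRs), and 11 carry an IAPE name while 14 do not. All 25 had a mean of at least 10 normalized counts and were tested, among 1180 subfamilies in all.

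IAP elements are LTR retrotransposons of the ERVK group in the mouse genome. A complete copy has an internal part that encodes gag, protease and polymerase, flanked by a pair of LTRs that hold the promoter and the polyadenylation signal. Most IAP copies have no working envelope gene and form particles inside the cell, while the E in IAPE refers to an envelope region. In male germ cells IAP copies are kept silent by DNA methylation and by piRNAs, and Maelstrom (Mael) acts in that piRNA pathway. The classes used here follow the annotation's names, and IAPEz-int is also the internal sequence that commonly lies between IAPLTR1 and IAPLTR2 repeats.

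The RNA came from testes of Mael-/- mice of the C57BL/6 strain at 3 months of age, and all 4 groups of 3 libraries share that genotype and age. TOTAL is the testis extract with 10 mM EDTA, and INPUT is the pool of fractions 5 to 8 of a 10 to 50% sucrose gradient loaded with it. IP is the RNA recovered from INPUT with an antibody against ORF1p, the RNA-binding protein of LINE-1 (L1). BO is the RNA held by beads with no antibody. No group comes from mice with intact Mael. The comparisons ask whether IAP RNA is found with L1 ORF1p above each of these 3 backgrounds, and whether the parts and types of IAP differ in this. In bulk RNA, fewer cells that hold a transcript and less of it per cell cannot be told apart.

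Recovered reads on repeat subfamilies ranged from 1384904 to 7282171 per library, of which 25355 to 91160 were IAP reads. IP libraries held between 34730 and 41861 IAP reads. Reads of 7SL RNA made up between 38.1% and 51.6% of the TOTAL libraries, and LSU rRNA made up 52.1% of BO replicate 3. In the authors' group means, Mael itself was listed at 0 in INPUT and IP, 0.502 in BO and 0.65 in TOTAL. Markers of spermatocytes, Sertoli cells and Leydig cells were all present in TOTAL, and the 4 round spermatid markers were low there, between 11.7 and 30.1 normalized counts.

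IAPEY4_I-int held most IAP reads in every group, and IAPEy-int had a larger share in IP than in any other library. The share of IAP reads on IAPEY4_I-int was 62.5%, 61.1% and 62.1% in TOTAL, 67.4%, 66.4% and 66.5% in INPUT, 69.9%, 68.3% and 66.8% in BO and 52.0%, 52.5% and 51.6% in IP. All 3 IP libraries lay below the other 9. The share on IAPEy-int was 12.5%, 11.6% and 9.94% in IP and between 2.59% and 3.70% in the other 9 libraries. IAPEz-int held between 13.4% and 19.5% in all 12 libraries. These are shares of reads and not levels per length, so they do not rank the RNAs by copy number.

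**Figure D1:**
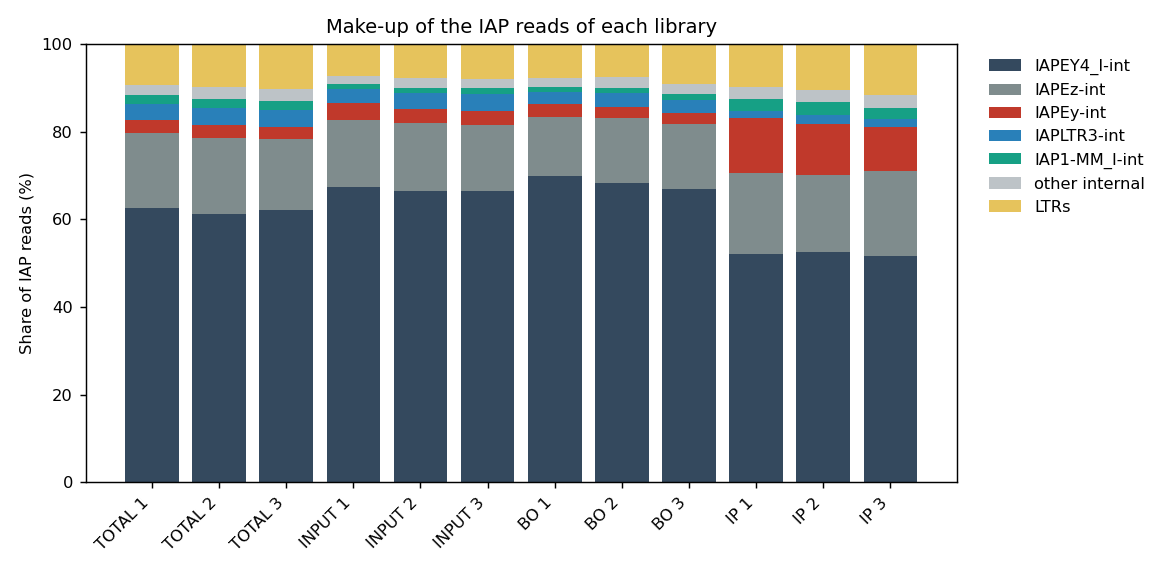
Stacked bars give the share of each library's IAP reads (percent, vertical axis) on 5 internal subfamilies, the other internal parts and all LTRs, for the 12 libraries on the horizontal axis. The IAPEy-int band covers 9.94% to 12.5% in the IP libraries and at most 3.70% elsewhere, and the IAPEY4_I-int band is lowest in IP.

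In IP against BO, 6 IAP subfamilies rose and 1 fell, where a call needs a log2 fold change past 1 in size and an adjusted p under 0.05 from limma. Over all 1180 subfamilies tested, 5.08% were called higher and 3.81% lower. The median log2 fold change was 0.50 over the 25 IAP subfamilies and -0.12 over all tested. In IP against INPUT, 3 rose and 3 fell, beside 3.22% higher and 2.88% lower over all, with medians of 0.12 and -0.06. In IP against TOTAL, 3 rose and 3 fell, beside 2.88% higher and 3.47% lower over all, with medians of 0.21 and -0.05. The 3 comparisons share the IP libraries. IAPEy-int and its LTR IAPEY_LTR rose in all 3 of them. IAPLTR4_I fell in all 3 with the deposited normalization, but stood at 0.059 against TOTAL when each library was scaled to its total, which is -1.43 relative to the median of all subfamilies under that scaling and -1.44 with the deposited normalization. In 8 of the 25 IAP subfamilies the 3 IP libraries lay above all 9 others, beside 7.29% of all subfamilies tested, and in 3 they lay below all 9, beside 8.81%.

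The split of calls moved with the scaling. With each library scaled to its total, 12 subfamilies were higher and 0 lower than in BO, 8 higher and 3 lower than in INPUT, and 21 higher and 0 lower than in TOTAL. That scaling moved the median of all tested subfamilies to 0.36, 0.47 and 1.49, in the same order. Scaled to totals without rRNA and 7SL RNA, the counts were 7 higher and 0 lower, 4 higher and 3 lower, and 7 higher and 1 lower. Median ratio scaling gave 6 higher and 0 lower than in BO, and 4 higher and 3 lower than in INPUT. Shares called over all subfamilies are given here only for the deposited normalization, so counts under other scalings have no such background beside them. Directions below are those of the deposited normalization, and exceptions are named.

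**Figure D2:**
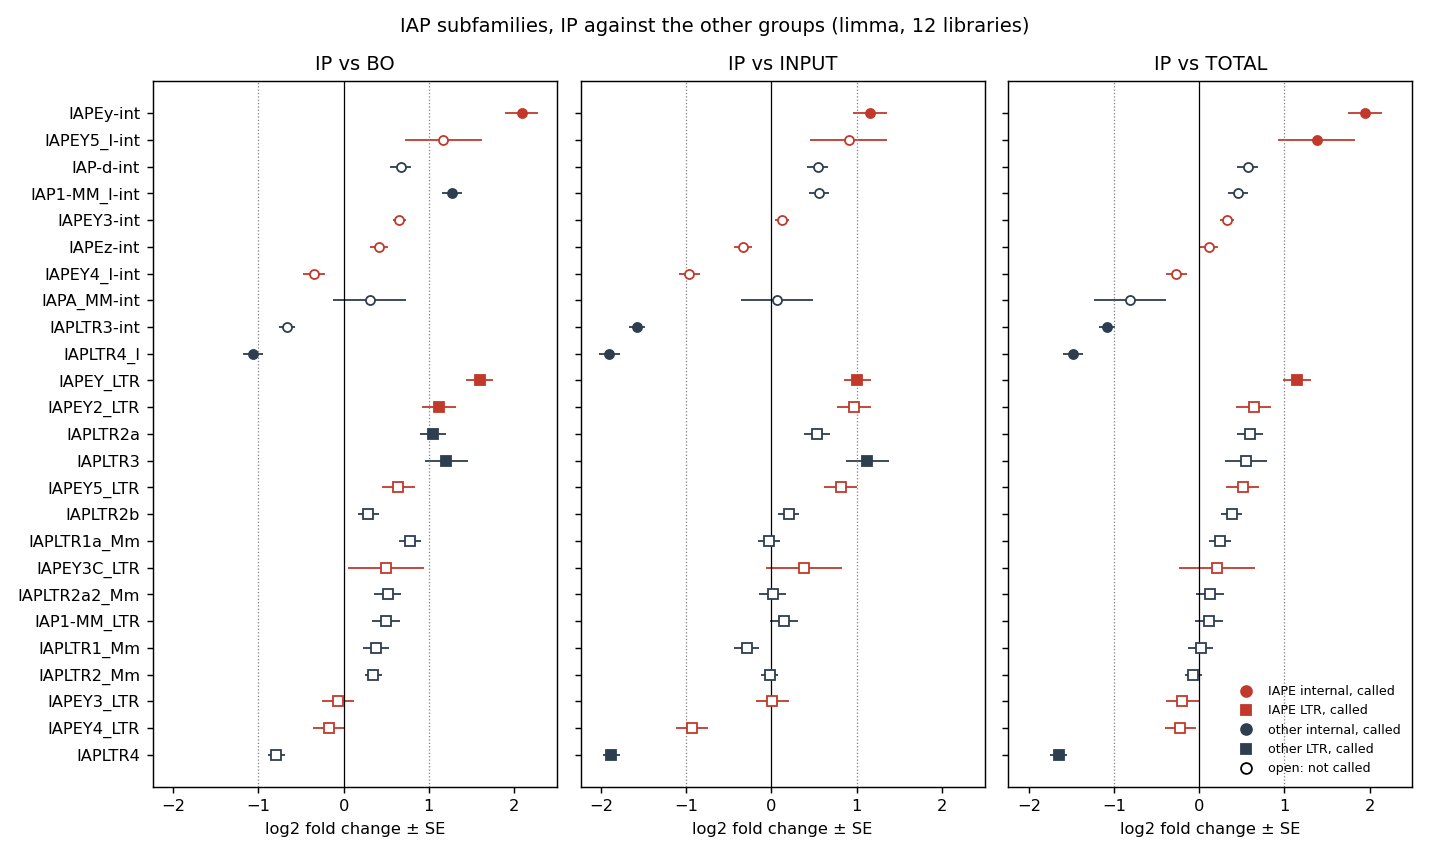
Points give the log2 fold change of the 25 IAP subfamilies (horizontal axis) with its standard error, in IP against BO, INPUT and TOTAL. Circles are internal parts, squares LTRs, red marks IAPE names, and filled symbols were called by limma. IAPEy-int and IAPEY_LTR lie past 1 in the 3 panels, and IAPLTR4_I past -1, all with the deposited normalization.

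Among the internal parts, IAPEy-int stood at 6766, 5167 and 4057 normalized counts in IP. It stood at 1546, 1121 and 1055 in BO, at 2820, 2019 and 2227 in INPUT and at 1542, 1358 and 1174 in TOTAL. Every IP library was above the other 9. The log2 fold change was 2.09 against BO (SE 0.20, adjusted p = 8.47e-06 from limma), which is 4.26-fold on that scale. It was 1.95 against TOTAL (SE 0.20, adjusted p = 2.95e-05 from limma) and 1.16 against INPUT (SE 0.20, adjusted p = 0.0012 from limma). The smaller value against INPUT went with a higher level in INPUT than in TOTAL or BO. Without IP replicate 1, the library with the highest count, the fold change against INPUT was 0.97 and no longer met the fold threshold.

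IAPEY4_I-int, the internal part with the most reads, was not called higher in IP with the deposited normalization. Its counts were 28063, 23339 and 21076 in IP and 35521, 29588 and 27171 in BO, and these ranges overlap. They were 51441, 43646 and 45822 in INPUT, all above the IP libraries, and 31860, 28178 and 26917 in TOTAL, which overlap with IP. The log2 fold change was -0.35 against BO (SE 0.13, adjusted p = 0.0481 from limma) and -0.97 against INPUT (SE 0.13, adjusted p = 0.000197 from limma), short of the fold threshold in both. The value against INPUT passed it without INPUT replicate 2 (-1.02) or without IP replicate 1 (-1.08). Against TOTAL it was -0.27 (adjusted p = 0.148 from limma). Scaled to library totals, the values against BO and TOTAL turned to 0.15 and 1.28 along with the median of all subfamilies, the latter past both thresholds (adjusted p = 0.00125 from limma), and relative to that median they were -0.22 and -0.21, beside -0.23 and -0.22 with the deposited normalization.

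IAPEz-int was not called in any comparison with the deposited normalization. It stood at 9953, 7854 and 7946 in IP, 6810, 6433 and 6021 in BO, 11707, 10268 and 10380 in INPUT and 8716, 8008 and 7061 in TOTAL. IP libraries lay above BO, below INPUT and among TOTAL, and the BO libraries lay below INPUT with no overlap. The log2 fold changes were 0.41, -0.34 and 0.11 against BO, INPUT and TOTAL, with adjusted p of 0.0102, 0.0352 and 0.513 from limma, and none passed the fold threshold. In BO against INPUT it was -0.75 (adjusted p = 0.000412 from limma), also short of that threshold. Scaled to library totals, the value of IP against INPUT was 0.21, which is -0.26 relative to the median of all subfamilies, and it was -0.27 relative to that median with the deposited normalization. That scaling also gave calls of IAPEz-int in IP against TOTAL (1.66, adjusted p = 4.63e-05 from limma) and INPUT against TOTAL (1.45, adjusted p = 0.00306 from limma), which are 0.17 and 0.42 relative to the median.

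IAPLTR4_I and IAPLTR3-int, which carry no IAPE name, were lower in IP than in each other group. IAPLTR4_I stood at 140, 124 and 121 in IP, 252, 260 and 297 in BO, 416, 517 and 522 in INPUT and 325, 403 and 355 in TOTAL. IAPLTR3-int stood at 931, 862 and 746 in IP, 1407, 1354 and 1259 in BO, 2512, 2396 and 2665 in INPUT and 1856, 1868 and 1648 in TOTAL. For both, the 3 IP libraries lay below the other 9.

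IAPLTR4_I fell by 1.06 against BO, 1.90 against INPUT and 1.48 against TOTAL on the log2 scale (SE 0.12 in each, adjusted p = 4.27e-05, 9.2e-07 and 7.7e-06 from limma). The call against BO was lost without BO replicate 3 (-0.99), with edgeR (-0.94) and DESeq2 (-0.95) on the recovered reads and with median ratio scaling (-0.94). It was also lost when scaled to library totals (-0.57), or to totals without rRNA and 7SL RNA (-0.91). IAPLTR3-int fell by 1.58 against INPUT (adjusted p = 4.98e-07 from limma) and by 1.08 against TOTAL (adjusted p = 8.19e-06 from limma). Against BO its log2 fold change was -0.67, short of the fold threshold. Without IP replicate 3 the value against TOTAL was -0.996 and was not called. Scaled to library totals, the values against TOTAL turned to 0.059 for IAPLTR4_I and 0.46 for IAPLTR3-int, against a median of 1.49 over all subfamilies tested. Relative to that median they were -1.43 and -1.02. Scaled to totals without rRNA and 7SL RNA, they were -0.98 and -0.58 against TOTAL and neither was called.

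Markers of somatic testis cells and of round spermatids were also lower in IP than in TOTAL. In the authors' group means, 4 of 4 Leydig markers (Cyp17a1, Cyp11a1, Star and Insl3) were over 2-fold lower in IP than in TOTAL, and their sum was 64124 in TOTAL and 12869 in IP. Of the 4 Sertoli markers, 3 were over 2-fold lower, with sums of 16312 and 4002. Against INPUT, 3 Leydig and 2 Sertoli markers were over 2-fold lower. Against BO, 0 Leydig markers were over 2-fold lower and 2 were higher, while 3 Sertoli markers were lower. Of the 4 round spermatid markers, 4 were over 2-fold lower than TOTAL, 3 than INPUT and 0 than BO. Their sums were 77.0 in TOTAL and 2.33 in IP. The 5 spermatocyte markers were over 2-fold higher in IP than in each other group. The part of cell type make-up in the IAP values was not tested.

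IAP1-MM_I-int and IAP-d-int were above the other 9 libraries in all 3 IP libraries. IAP1-MM_I-int stood at 1469, 1310 and 1082 in IP, 577, 510 and 497 in BO, 906, 851 and 843 in INPUT and 1061, 896 and 857 in TOTAL. Its log2 fold change was 1.28 against BO (SE 0.12, adjusted p = 6.61e-06 from limma), 0.56 against INPUT and 0.45 against TOTAL. IAP-d-int stood at 522, 466 and 426 in IP and between 250 and 352 in the other libraries. Its log2 fold changes of 0.67, 0.54 and 0.57 against BO, INPUT and TOTAL fell short of the fold threshold, with adjusted p of 0.0012, 0.00609 and 0.00629 from limma. Scaled to library totals they were 1.17, 1.09 and 2.11, and each was called. Relative to the median of all subfamilies under that scaling they were 0.80, 0.62 and 0.62. Scaled to totals without rRNA and 7SL RNA, the value against TOTAL was 1.07 and was called.

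The remaining internal parts were IAPEY3-int, IAPEY5_I-int and IAPA_MM-int. IAPEY3-int had 727, 658 and 621 counts in IP, against 445, 427 and 399 in BO and between 518 and 630 in INPUT and TOTAL. Its log2 fold changes were 0.66, 0.12 and 0.33 against BO, INPUT and TOTAL. IAPEY5_I-int had only 7 to 36 recovered reads per library. It stood at 36.8, 46.1 and 27.3 in IP and at 11.1, 12.1 and 17.0 in TOTAL, with a log2 fold change of 1.38 (SE 0.45, adjusted p = 0.0465 from limma). That call was lost on leaving out any 1 of the 6 libraries, with adjusted p between 0.055 and 0.152. The IAP subfamilies called higher than TOTAL also fell from 3 to 2 with the replicate block, with pseudocounts of 0.1 or 10 and with no filter. Against BO the log2 fold change of IAPEY5_I-int was 1.17 with no overlap (adjusted p = 0.0656 from limma). It was called there with library totals (with and without rRNA and 7SL RNA), edgeR, DESeq2, a fit of IP and BO alone or without BO replicate 2. Against INPUT it was 0.91, and the ranges overlapped. IAPA_MM-int had counts between 5.6 and 18.7 in every library, and its ranges overlapped in all 3 comparisons. Against TOTAL its log2 fold change was -0.81 (adjusted p = 0.201 from limma), and without IP replicate 3 it was -1.26 and called lower (adjusted p = 0.0454 from limma).

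**Figure D3:**
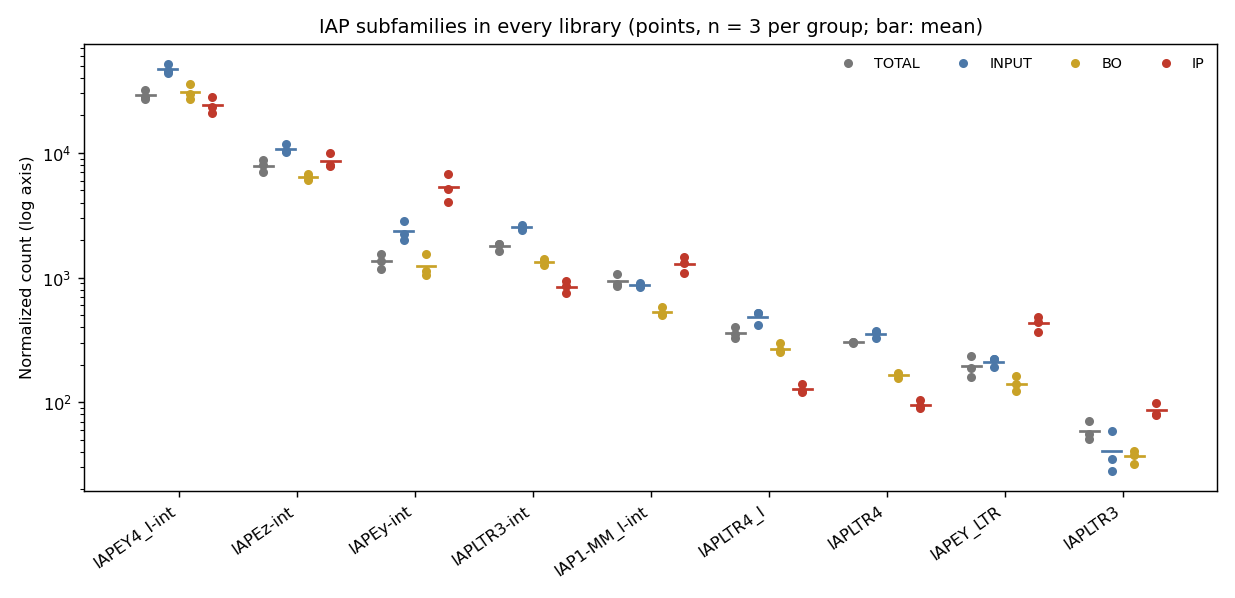
Points give the normalized count (log axis) of 9 IAP subfamilies in each of the 12 libraries, coloured by group, with a bar at each group's mean of 3. The IP libraries of IAPEy-int, IAP1-MM_I-int, IAPEY_LTR and IAPLTR3 lie above the other 9, and those of IAPLTR3-int, IAPLTR4_I and IAPLTR4 below them.

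Of the 15 LTR subfamilies, 4 rose and 0 fell against BO, 2 rose and 1 fell against INPUT, and 1 rose and 1 fell against TOTAL. The LTR IAPEY_LTR stood at 485, 437 and 367 in IP, 139, 122 and 162 in BO, 224, 193 and 221 in INPUT and 160, 187 and 236 in TOTAL, with the IP libraries above all others. Its log2 fold change was 1.60 against BO (SE 0.16, adjusted p = 1.45e-05 from limma) and 1.15 against TOTAL (adjusted p = 0.000423 from limma). Against INPUT it was 1.01 (adjusted p = 0.000774 from limma), and the call was lost without INPUT replicate 2 (0.94), IP replicate 1 (0.91) or IP replicate 2 (0.99), and with a pseudocount of 10 (0.98).

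IAPLTR4 was the LTR that fell. It stood at 89.7, 104 and 93.6 in IP, 173, 156 and 168 in BO, 365, 376 and 325 in INPUT and 303, 306 and 298 in TOTAL. Both IP and BO lay below INPUT and TOTAL with no overlap, and IP lay below BO. IAPLTR4 fell by 1.88 against INPUT and by 1.65 against TOTAL on the log2 scale (SE 0.10, adjusted p = 3.36e-07 and 7.53e-07 from limma). In BO against INPUT it fell by 1.09 (adjusted p = 1.41e-05 from limma), the 1 IAP call of that comparison, beside 2.63% called higher and 2.8% called lower over all subfamilies. Under the scaling to library totals its value there was -1.04 and the call was lost (adjusted p = 0.0559 from limma). Scaled to library totals, its value against TOTAL was -0.11 and was not called, and relative to the median of all subfamilies it was -1.60.

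The other LTRs called were IAPLTR3, IAPEY2_LTR and IAPLTR2a. IAPLTR3 stood at 98.6, 79.4 and 81.0 in IP, 40.5, 37.7 and 32.1 in BO, 28.2, 35.1 and 59.0 in INPUT and 50.7, 56.0 and 70.2 in TOTAL. It rose by a log2 fold change of 1.21 against BO (adjusted p = 0.00269 from limma) and 1.13 against INPUT (adjusted p = 0.0058 from limma), the latter lost without INPUT replicate 1 (0.90) and with a pseudocount of 10 (0.96). IAPEY2_LTR stood at 225, 214 and 216 in IP and between 85.9 and 170 elsewhere, and rose against BO (1.12, adjusted p = 0.00113 from limma). Against INPUT it was 0.97 (adjusted p = 0.0039 from limma), short of the fold threshold. It was called there with median ratio scaling (1.05), library totals (1.51) and totals without rRNA and 7SL RNA (1.11). IAPLTR2a stood at 475, 343 and 333 in IP and between 159 and 291 elsewhere, and rose against BO (1.05, adjusted p = 0.000263 from limma). Its call was lost without BO replicate 2 (0.96) or IP replicate 1 (0.89).

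Internal parts were compared with the LTRs that share their names. The log2 fold changes against INPUT were 1.16 and 1.01 for IAPEy-int and IAPEY_LTR, -0.97 and -0.94 for IAPEY4_I-int and IAPEY4_LTR, and -1.90 and -1.88 for IAPLTR4_I and IAPLTR4. IAPEY3-int and IAPEY3_LTR were at 0.12 and 0.011 against INPUT, and neither was called in any comparison of IP with the deposited normalization. IAPLTR3-int and IAPLTR3 were at -1.58 and 1.13 against INPUT, where both were called. The log2 fold change of the internal part minus that of its LTR was -1.88, -2.71 and -1.63 against BO, INPUT and TOTAL, and over the other 6 pairs that difference was between -0.28 and 0.87. The log2 ratio of IAPLTR3-int to IAPLTR3 was 3.29 ± 0.13 (SD, n = 3) in IP, 5.19 ± 0.09 in BO, 6.02 ± 0.49 in INPUT and 4.94 ± 0.34 in TOTAL. IP lay below the other groups with no overlap. IAPLTR3 had between 20 and 83 recovered reads in BO, INPUT and IP libraries, so its side of the ratio rests on few reads. The IAPLTR3 pair was singled out after its values were seen.

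Summed within each library, the ratio of internal to LTR reads does not depend on the scaling of the library. The log2 ratio was 3.19, 3.10 and 2.94 in IP, 3.57, 3.60 and 3.33 in BO, 3.67, 3.58 and 3.54 in INPUT and 3.29, 3.20 and 3.13 in TOTAL. IP lay below BO and INPUT with no overlap and overlapped with TOTAL. Over the 4 groups, an exact permutation test of the F statistic gave p = 0.00195. The permutation tests here and below exchanged libraries without regard to their replicate numbers. The difference was -0.42 against BO and -0.52 against INPUT, each with an exact two-sided permutation p of 0.1, the smallest that 3 against 3 libraries allow, and 0.147 after Benjamini-Hochberg adjustment over 25 tests. It was -0.13 against TOTAL (exact permutation p = 0.2).

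The ratio of IAPE to other IAP reads was 2.79, 2.72 and 2.64 on the log2 scale in IP. It was 3.16, 3.02 and 2.89 in BO, 3.14, 2.94 and 2.91 in INPUT and 2.66, 2.53 and 2.57 in TOTAL. IP again lay below BO and INPUT with no overlap, and its lowest library overlapped with TOTAL. The differences were -0.31, -0.28 and 0.13 against BO, INPUT and TOTAL, with exact permutation p of 0.1, 0.1 and 0.2. Over the 4 groups the exact permutation p was 0.00377. Among internal parts alone, the ratio of IAPE to other IAP was 3.82 ± 0.07 in IP, 3.99 ± 0.12 in BO, 3.85 ± 0.13 in INPUT and 3.50 ± 0.06 in TOTAL (SD, n = 3).

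Both class ratios rest on IAPEY4_I-int, which holds most of the reads. Without IAPEY4_I-int and IAPEY4_LTR, left out after the data had been seen, the internal to LTR ratio differed by 0.16 between IP and BO and by -0.10 between IP and INPUT. It was 2.03 ± 0.13 in IP and 1.80 ± 0.11 in TOTAL (SD, n = 3), with overlap, so the direction against TOTAL turned as well as that against BO. The IAPE to other IAP ratio without IAPEY4 was 1.33 ± 0.09 in IP, 0.80 ± 0.07 in BO, 0.87 ± 0.13 in INPUT and 0.63 ± 0.05 in TOTAL (SD, n = 3). IP then lay above each other group with no overlap, so its direction against BO and INPUT turned, to 0.53 and 0.46. In a separate setting, also added after the data had been seen, IAPEY4 was kept and IAPEy-int and IAPEY_LTR were left out. The difference of the IAPE to other IAP ratio between IP and TOTAL was then -0.04, beside 0.13 with all members. Leaving out both IAPEY4 and IAPEy was not done. Of the 11 IAPE subfamilies, 3 were called higher and 0 lower in IP against BO, 2 and 0 against INPUT and 3 and 0 against TOTAL. Of the 14 other IAP subfamilies, 3 were higher and 1 lower, 1 and 3, and 0 and 3, in the same order. These counts stand beside the shares over all subfamilies given above, and the difference between the classes in calls was not tested.

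**Figure D4:**
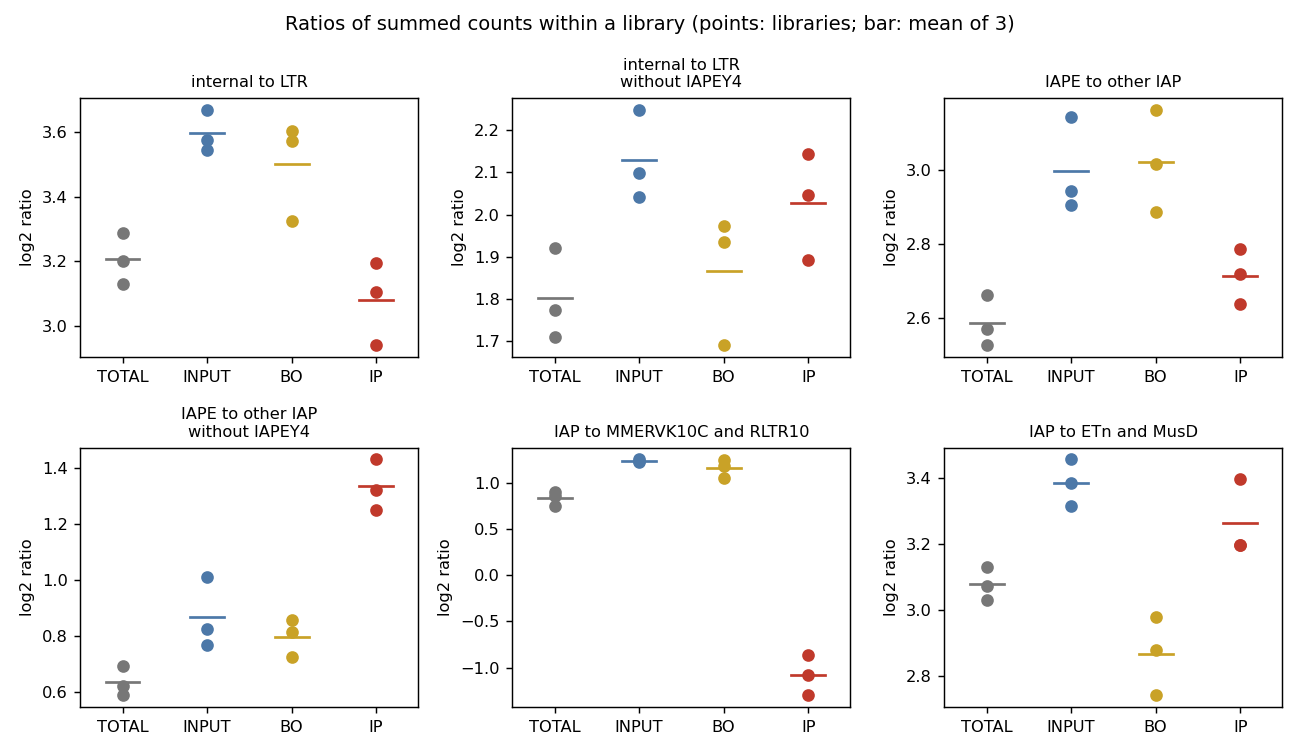
Each panel gives a log2 ratio of summed counts within a library (vertical axis, own scale) for the 3 libraries of each group, with a bar at the mean. IP lies below BO and INPUT for internal to LTR and IAPE to other IAP, and above all 3 groups for IAPE to other IAP without IAPEY4. In the panel of IAP to MMERVK10C and RLTR10, the IP libraries lie below 0 and the others above.

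Summed IAP reads were set against those of MMERVK10C, an ERVK relative. MMERVK10C-int stood at 119611, 83727 and 65446 in IP and between 14639 and 28159 in the other libraries, and its log2 fold change was 2.38 against BO (SE 0.20, adjusted p = 5.02e-06 from limma). The log2 ratio of all IAP reads to those of MMERVK10C-int with all RLTR10 names (LTRs and RLTR10-int) was -1.30, -1.09 and -0.87 in IP. It was above 0 in each of the other 9 libraries, with means of 0.84 ± 0.08 in TOTAL and 1.16 ± 0.10 in BO (SD, n = 3) and the highest mean in INPUT, and the exact permutation p over the 4 groups was 0.000195. The difference of IP from BO, INPUT and TOTAL was -2.25, -2.32 and -1.92. Without IAPEY4, which holds most of the IAP reads, it was -1.61, -1.76 and -1.57. With medians of log2 counts in place of sums, it was only -0.31, -0.61 and -0.18, so its size rests on the most abundant members. The sum does not stand for each subfamily, since the log2 fold change of IAPEy-int was 2.09 against BO and 1.95 against TOTAL, and that of MMERVK10C-int was 2.38 and 2.00. The log2 ratio of IAP to ETn and MusD reads was 3.26 ± 0.12 in IP, 2.86 ± 0.12 in BO, 3.39 ± 0.07 in INPUT and 3.08 ± 0.05 in TOTAL (SD, n = 3). IP lay above BO by 0.40 and above TOTAL by 0.19 with no overlap (exact permutation p = 0.1 in each) and overlapped with INPUT. The difference from INPUT was -0.12 and turned in sign without IAPEY4 and with medians of log2 counts, as given under the processing.

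INPUT against TOTAL and BO against INPUT compare the backgrounds. In INPUT against TOTAL, 0 IAP subfamilies were called by limma, 0 by edgeR and 0 by DESeq2. With libraries scaled to their totals, 16 were called higher and 0 lower, and 3 were called higher without rRNA and 7SL RNA. These scalings moved the median of all subfamilies to 1.03 and 0.39, and no share called over all subfamilies is given for them. With the deposited normalization, 9 of 25 had an unadjusted p under 0.05 from limma, beside 17.0% of all subfamilies tested. IAPEY4_I-int and IAPLTR3-int were higher in INPUT by 0.70 and 0.50 with no overlap (adjusted p = 0.0167 from limma in each), short of the fold threshold. With that normalization, 0% of all subfamilies were called higher and 0.339% lower. The internal parts had a median log2 fold change of 0.43 and the LTRs 0.06. The internal to LTR ratio was higher in INPUT by 0.39 with no overlap between libraries (exact permutation p = 0.1). That p takes the libraries as independent, although same-numbered TOTAL and INPUT libraries deviated together. In BO against INPUT, all 10 internal parts had values below 0, between -0.93 and -0.13, as had 13 of the 15 LTRs, while 634 of all 1180 subfamilies had values above 0. Of the internal parts 0 passed the fold threshold. Of these parts, 7 had an adjusted p under 0.05 from limma and lay below INPUT with no overlap. At that adjusted p, 8 of the 15 LTRs were lower too, beside 11.7% of all subfamilies tested. The fit took the libraries as independent, although same-numbered BO and INPUT libraries correlated at 0.30, 0.06 and 0.56. Scaled to library totals, 0 of the 10 internal parts had an adjusted p under 0.05, with log2 fold changes of like size (-0.86 for IAPLTR3-int and -0.70 for IAPEz-int, adjusted p = 0.172 and 0.370 from limma).

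Single loci were read from the authors' group means, in 1 table for each comparison with IP, and each table has its own normalization. They carry no value per library, and the authors' errors and p-values were not used, so no error or test is given here. Of the 6436 IAP loci, 4513 are internal and 1923 LTR, and 3019 are IAPEz-int. Few carried much signal. With a mean of at least 10 over both groups, 70 remained in the table of IP and BO, 110 in that of IP and INPUT and 91 in that of IP and TOTAL. Coordinates of the loci were not analysed here, and loci are named as the tables number them.

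Against BO, 13 of 70 loci were over 2-fold higher in IP and 30 were over 2-fold lower, beside 17.2% and 47.7% of all repeat loci at that mean. Against INPUT, 15 of 110 were higher and 58 lower, beside 22.1% and 31.2%. Against TOTAL, 18 of 91 were higher and 28 lower, beside 24.1% and 24.3%. The shares of IAP loci that were lower than INPUT (52.7%) and TOTAL (30.8%) were above those backgrounds, and the share lower than BO (42.9%) was below its own. With a minimum mean of 1 this turned, to 24.9% of 949 IAP loci lower than INPUT beside 25.8% of all repeat loci, and 21.1% of 852 lower than TOTAL beside 23.2%. At that minimum 188 loci were higher than TOTAL and 180 lower, and the higher share was 22.1% beside 16.1%. With a minimum of 100, 88.9% of 18 were lower than INPUT beside 31.7%, and 25.0% of 12 lower than TOTAL beside 28.5%. At that minimum the result against BO turned, with 66.7% of 12 lower beside 57.0%. Centred on the median repeat locus, 21 of 70 loci were higher than BO and 9 lower, beside 30.0% and 25.7% of all repeat loci, so the higher share was at the background.

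The locus counts differed by subfamily, and the minimum mean of 10 over both groups lets in loci through the group where they are high, so the counts are a description. Of IAPEy-int loci, 8 of 10 were over 2-fold higher than BO, 8 of 16 than INPUT and 12 of 13 than TOTAL, and 1 of these 16 was over 2-fold lower than INPUT. Of the IAPEy-int loci, 5, 6 and 8 had a mean under 10 outside IP and passed the minimum through IP alone. Of those at 10 or above outside IP as well, a limit set after the data had been seen, 5 of 5, 3 of 10 and 4 of 5 were over 2-fold higher, beside 6.94%, 9.30% and 10.5% of all repeat loci under the same limit. Of IAPLTR3-int loci, 10 of 13 were over 2-fold lower than BO, 13 of 18 than INPUT and 9 of 14 than TOTAL, while 0, 1 and 1 were over 2-fold higher. Among those at 10 or above in IP too, 6 of 8, 7 of 11 and 7 of 11 were over 2-fold lower, beside 21.9%, 12.2% and 8.51% of all repeat loci at 10 or above in IP. Of IAPEY4_I-int loci, 12 of 19, 22 of 25 and 6 of 23 were over 2-fold lower, in the same order, and 12 of 19, 17 of 20 and 3 of 20 with a mean of 10 or above in IP too. IAPEz-int loci were 2 of 10, 12 of 22 and 4 of 13 lower, and 1, 0 and 0 higher, with 1 of 8, 5 of 11 and 2 of 10 lower among those at 10 or above in IP. IAP1-MM_I-int loci went both ways, with 3 higher and 1 lower than BO, 3 and 3 than INPUT, and 3 and 2 than TOTAL.

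The 5 loci with the highest mean in the table of IP and TOTAL were all IAPEY4_I-int copies, and together they held 24.0% of the IAP signal there. IAPEY4_I-int_408 had a mean of 819 in TOTAL and 777 in IP, and alone held 9.17%. IAPEY4_I-int_136 had 517 in TOTAL and 216 in IP, a log2 ratio of -1.25, computed like all these ratios on means plus 1. IAPEY4_I-int_499, IAPEY4_I-int_460 and IAPEY4_I-int_13 had log2 ratios of -0.34, -0.36 and -0.26. Copies of 1 subfamily thus differed in their ratio by more than 1 log2 unit, with no error given here for either value.

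Among loci with a mean of at least 50, the highest ratios to TOTAL were those of IAP1-MM_I-int_391 (35.6 in TOTAL and 172 in IP, log2 2.25), IAPEy-int_223 (17.2 and 84.4, log2 2.23) and IAP1-MM_I-int_233 (29.4 and 126, log2 2.07). Each of these loci was under 50 in TOTAL and passed the minimum through IP, so the minimum favours high ratios here and the order is a description. Against BO, the same IAP1-MM_I-int loci led, with log2 ratios of 2.04 and 2.13, and they too passed the minimum through IP. The next locus above that minimum, IAPEY4_I-int_408, was at -0.45. Loci that fell under the minimum there had higher ratios, such as IAPEy-int_101 (14.9 in BO and 63.5 in IP, log2 2.02) and IAPEy-int_223 (24.4 and 64.5, log2 1.37). IAP1-MM_I-int_391 held 20.7% of the signal of its subfamily in the table of IP and TOTAL.

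The lowest ratios to TOTAL were those of IAPLTR3-int_30 (210 in TOTAL and 40.8 in IP, log2 -2.34), IAPLTR3-int_27 (109 and 21.3, log2 -2.30) and IAPEY4_I-int_136. Against BO they were those of IAPLTR3-int_30 (178 in BO and 31.2 in IP, log2 -2.48), IAPLTR3-int_32 (98.0 and 16.9, log2 -2.47) and IAPEY4_I-int_136 (610 and 165, log2 -1.88). Each IAPLTR3-int locus named here was under the minimum mean in IP and passed it through TOTAL or BO. The minimum thus favours low ratios for these loci, and the order is a description. IAPEY4_I-int_136 was above the minimum in IP as well. IAPLTR3-int_30 held 17.7% of the IAPLTR3-int signal in the table of IP and TOTAL.

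**Figure D5:**
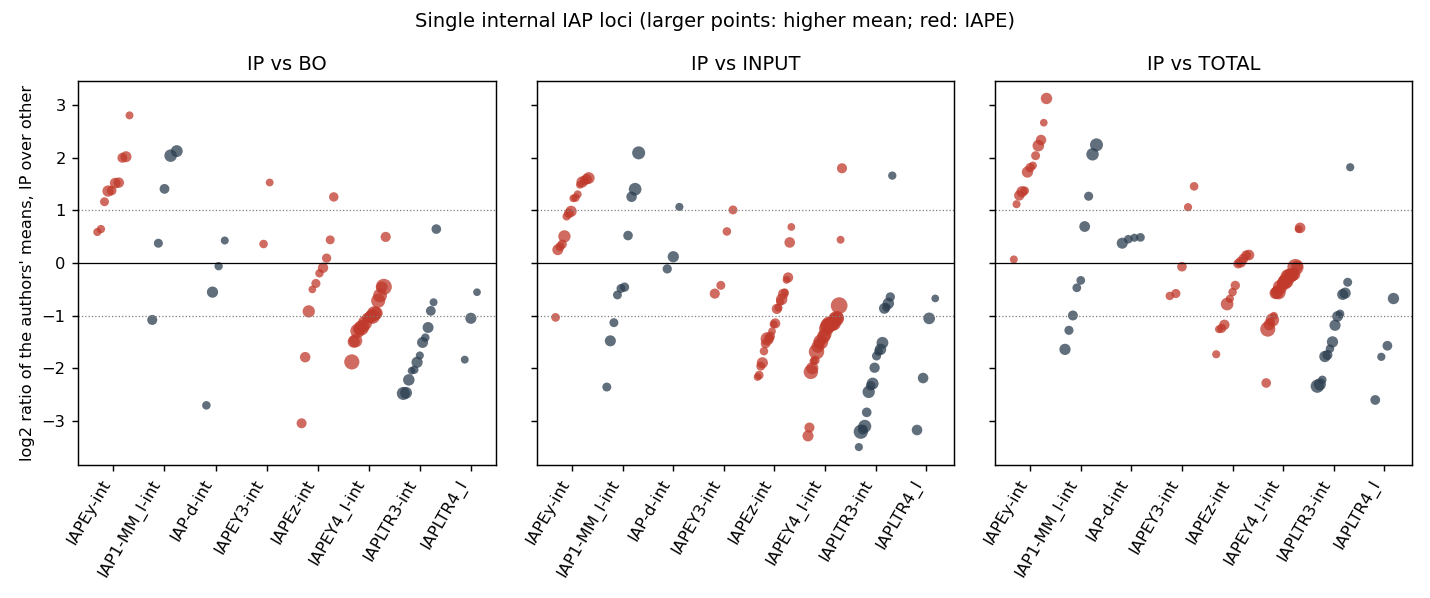
Each point is a single locus of 8 internal IAP subfamilies with a mean of at least 10, placed by the log2 ratio of the authors' group means (plus 1) of IP over BO, INPUT or TOTAL, with larger points for higher means and red for IAPE names. IAPEy-int loci lie above 0 but for 1 in the panel of INPUT, and most IAPLTR3-int and IAPLTR4_I loci lie below 0.

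The subfamily table and the locus tables can be set side by side. Summed over all loci and set relative to IAPEz-int, 24 subfamilies had a Pearson correlation between the log2 ratios from the locus tables and those from the subfamily table of 0.86 against BO, 0.93 against INPUT and 0.64 against TOTAL, with the same sign in 18, 24 and 19 of them. The points share libraries, and subfamilies are not independent replicates. For IAPEy-int the relative log2 values against TOTAL were 1.84 in the subfamily table and 1.87 in the sum over loci. For IAPEY_LTR they were 1.04 and 0.021, and for IAPA_MM-int -0.92 and 1.92, the latter from loci with a summed mean of 0.651 in TOTAL and 2.44 in IP.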

How the data were processed

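The authors mapped stranded RNA-seq reads to mm10 with STAR, reassigned ambiguous reads with Telescope, added up the reads of each repeat subfamily and scaled these counts by upper quartile in EBSeq. The deposited signal is that normalized count per library (4 groups of 3 biological replicates, as the series describes). All values were whole multiples of 1 step per library (100% within a tolerance of 0.1), so reads were recovered. Fewer reads, as in IP, give less precise values.

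For single loci the deposited signal is the mean DESeq2-normalized count of a group. The authors' log2 fold changes, p-values and Wald score in these tables were not used. How loci were counted is not given in the sources used here.

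Computed here was log2(normalized count + 1), fitted with limma 3.58.1 in R 4.3.3 in 1 fit of 12 libraries, over 1180 subfamilies with a mean of at least 10 and with Benjamini-Hochberg adjustment. On simulated counts for IP against BO, over 1180 subfamilies, 100% of 200 changed ones were called, and 1 unchanged one. That share was not split by fold change, so calling near the fold threshold of 1 was not tested. Same-numbered TOTAL and INPUT libraries deviated together (correlations of 0.63, 0.34 and 0.32), and those of BO and INPUT correlated at 0.30, 0.06 and 0.56. Those of IP did not deviate together with any group in all 3 pairs. Class ratios were compared by exact permutation. Alternatives were other pseudocounts, filters and scalings, edgeR 4.0.16 and DESeq2 1.42.0 on recovered reads, a replicate block and leaving out each library. Described singly were all internal subfamilies, LTR subfamilies called in a comparison of IP, the 5 loci with the highest mean against TOTAL, and the 3 highest and lowest ratios to BO and TOTAL among loci with a mean of at least 50. The members and lists were chosen with earlier results of these data known. IAP sequences were not analysed here.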

Additional observations from a re-analysis of the deposited data

How the results depend on the processing

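Depth limits the low subfamilies most, and the locus tables allow no library to be left out. Scaling each library to its total, which moved the median of all subfamilies from -0.047 to 1.49 between IP and TOTAL, gave 12 called IAP subfamilies in IP against BO, 11 against INPUT and 21 against TOTAL, 16 in INPUT against TOTAL and 0 in BO against INPUT. The log2 fold change of IAPEY4_I-int turned to 0.15 (IP against BO) and 1.28 (IP against TOTAL), and to 0.23 against TOTAL without rRNA and 7SL RNA, a setting that also gave 3 calls in INPUT against TOTAL. IAPEz-int turned to 0.21 against INPUT, and IAPA_MM-int, IAPLTR3-int and IAPLTR4_I turned to 0.62, 0.46 and 0.059 against TOTAL.

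Without IAPEY4, added after the data had been seen, the internal to LTR ratio turned to 0.16 (IP against BO) and 0.23 (IP against TOTAL). The IAPE to other IAP ratio turned to 0.53 (IP against BO), 0.46 (IP against INPUT) and -0.070 (BO against INPUT), and among internal parts to 0.68 (IP against BO) and 0.70 (IP against INPUT). The IAP to ETn and MusD ratio turned to 0.44 (IP against INPUT). Without IAPEy, added likewise, the IAPE to other IAP ratio turned to -0.035 (IP against TOTAL). With medians of log2 counts in place of sums, the internal to LTR ratio turned to 0.028 (BO against INPUT). The IAPE to other IAP ratio turned to 1.0 (IP against BO), 0.91 (IP against INPUT), -0.035 (INPUT against TOTAL) and -0.094 (BO against INPUT), and among internal parts to 1.5, 1.20 and -0.30 (IP against BO, IP against INPUT and BO against INPUT). The IAP to ETn and MusD ratio turned to 0.64 (IP against INPUT) and -0.18 (INPUT against TOTAL). The cause of these turns was not tested, beyond the members left out.

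Leaving out 1 library at a time gave 6 to 7 called IAP subfamilies against BO, 5 to 8 against INPUT, 5 to 5 against TOTAL (without IP replicate 3, IAPLTR3-int lost its call there and IAPA_MM-int gained 1) and 1 to 2 in BO against INPUT, with 2 there without INPUT replicate 2 or without BO replicate 1. The IAPE to other IAP ratio of BO against INPUT ranged from -0.045 to 0.10, and among internal parts IP against INPUT ranged from -0.081 to 0.044. The log2 fold change of IAPA_MM-int turned to -0.14 against BO without IP replicate 3, and against INPUT to -0.12 without INPUT replicate 3 and -0.38 without IP replicate 3. Its ranges were -0.14 to 0.61 and -0.38 to 0.37.

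IAP loci past 2-fold numbered 28 of 70, 47 of 110 and 26 of 91 against BO, INPUT and TOTAL with a pseudocount of 10 (8 higher and 20 lower, 6 and 41, and 10 and 16). They stand beside 10.8% higher and 33.2% lower, 13.0% and 17.5%, and 14.6% and 13.8% of all repeat loci. With a mean of at least 1 they numbered 283 of 685, 358 of 949 and 368 of 852 (120 higher and 163 lower, 122 and 236, and 188 and 180), beside 13.5% higher and 35.8% lower, 17.4% and 25.8%, and 16.1% and 23.2% of all repeat loci. With a mean of at least 100, which keeps fewer loci, they numbered 8 of 12, 17 of 18 and 4 of 12 (0 higher and 8 lower, 1 and 16, and 1 and 3). Over all repeat loci at that mean, 19.6% were higher and 57.0% lower, 26.9% and 31.7%, and 31.8% and 28.5%.

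The replicate block gave 7, 6, 5, 0 and 1 called subfamilies in IP against BO, INPUT and TOTAL, INPUT against TOTAL and BO against INPUT. Same-numbered libraries correlated between -0.14 and 0.63, with a median of 0.089 and over 0.1 in 8 of 18 pairs. Libraries with different numbers had a median of -0.060, with 9 of 36 pairs over 0.1. Of the 12 libraries, 8 were closest to their own number. Same-numbered BO and INPUT libraries correlated at 0.30, 0.06 and 0.56, and IP and BO libraries at -0.014, 0.079 and 0.098. The labels do not say whether the numbers pair the libraries, and the main fit used no pairs. All 3 same-numbered pairs of TOTAL and INPUT were over 0.1. The count of 0 there could not move with the block, since a block leaves fold changes as they are in this balanced design. The IAP values of INPUT against TOTAL, between -0.87 and 0.79, were all short of the fold threshold. Of the other settings for single subfamilies, 461 changed neither the direction nor the call, 25 gained a call, 15 lost one and 7 turned the direction, and for class ratios 131 kept the sign and 19 turned it.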
